A study of Mus musculus with 4 samples.

Results

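The genes described here encode proteins that build ribosomes in the nucleolus, together with subunits of RNA polymerase I. They were found by their symbols in the FPKM table of each library, and 35 of the 36 listed genes were present among 23312 genes (Noc2l was not analysed here). All 35 had a mean of at least 1 FPKM and were tested. FPKM is the number of sequenced fragments scaled to transcript length and to library size. The libraries came from B220+CD43+ pro-B cells, the early B-lineage cells that rearrange the immunoglobulin heavy chain, sorted from bone marrow of C57BL/6 mice. One group was Cnot3(fl/fl), with loxP-flanked alleles of Cnot3, and the other Cnot3(+/+), with wild-type alleles, written below as Cnot3 fl/fl and Cnot3 +/+ or wild type. Library values are given for replicate 1 and then replicate 2. Both groups carried RERTCre, a tamoxifen-inducible Cre recombinase whose promoter the sources used here do not name. All animals were injected with 1 mg tamoxifen on days 1, 2, 4 and 7 and analysed on day 10, at an age that the sources used here leave out. Each genotype had 2 libraries, described as individual replicates. Cnot3 is a subunit of CCR4-NOT, the complex that shortens poly(A) tails of mRNAs.

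Ribosome biogenesis begins when RNA polymerase I transcribes the ribosomal DNA into a long precursor. Small nucleolar RNA-protein particles (snoRNPs) then modify the precursor: box C/D particles add methyl groups and box H/ACA particles convert uridine to pseudouridine. Assembly factors fold and cut it into the RNAs of the small (40S) and large (60S) subunits. In lymphocyte progenitors these genes are known to be transcribed more strongly in growing and dividing cells, in part under control of Myc.

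The members were expressed at moderate levels in all 4 libraries, and most differed little between the genotypes. Their mean over the 4 libraries ran from 2.28 FPKM for Wdr12 to 70.7 FPKM for Nop10, with a median of 24.5 FPKM. In Cnot3 fl/fl libraries 1 member rose, the small-subunit factor Wdr3, and 2 fell, the H/ACA protein gene Nop10 and the nucleolar chaperone gene Npm1. The other 32 did not pass the test (limma, adjusted p under 0.05 over all 11017 genes tested), which does not show that they were equal in both genotypes. That is 3 of 35 members, or 8.57%, against 9.49% of all genes tested, so the share called was near the background. Split by direction, that background held 6.22% called higher and 3.28% called lower. No member was marked as significant in the authors' deposited table, against 6.64% of the genes tested here, and the lowest q-value of a member there was 0.056, for Wdr3. The median log2 fold change of the members was 0.08, beside -0.01 over all genes tested, and 21 of 35 members had a positive value, against 49.0% of all genes.

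Both Cnot3 fl/fl libraries lay above both Cnot3 +/+ libraries in 17 members, or 48.6%, where 32.7% of all genes tested did so. They lay below in 6 members, or 17.1%, where 31.7% of all genes did so, and the genotypes overlapped in the other 12. Members without overlap were thus 65.7%, close to the 64.4% of all genes tested. At an unadjusted p under 0.05 there were 15 members, 12 higher and 3 lower, or 42.9% against 33.8% of all genes tested. The 12 higher were 34.3% of members against 18.5% of all genes, and the 3 lower were 8.57% against 15.3%. These shares describe the list and were not tested.

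Libraries that stand apart touch these results. The spacing of the lowest values gave relative depths of 0.748 to 1 across the 4 libraries. Each was set against Cnot3 fl/fl replicate 2, an estimate that rested on 11.8% to 13.3% of low genes in the other 3 libraries, and the absolute depth was unknown. Cnot3 +/+ replicate 1, the shallowest, had Eif2s3y, a Y-linked gene, at 29.3 FPKM and Xist at 0.0242 FPKM. In the other 3 libraries Eif2s3y was at 0 to 0.0275 FPKM and Xist at 54.3 to 63.1 FPKM. Cnot3 +/+ replicate 1 thus differed from them in sex-linked transcripts, and so did the 2 Cnot3 +/+ libraries from each other. Cnot3 itself was at 39.0 and 40.3 FPKM in libraries that carry the Cnot3 fl/fl label, and at 41.6 and 39.3 FPKM in those with the Cnot3 +/+ label. The sources used here do not say which exons loxP flanked, so a level summed over all exons left the labels unchecked. Among markers of the labelled cell type, Cd79a was present in every library. Where 3.28% of all genes tested were called lower, 6 of 13 early B-lineage markers fell and 0 rose. The sum of these 13 was 844 and 816 FPKM in the fl/fl mice, compared with 1073 and 1458 FPKM in the wild type. The 12 plasmacytoid dendritic cell markers summed to 9203 and 10821 against 11671 and 11132 FPKM, with 0 higher and 1 lower, and none of them was at 0. Siglech, which defines that cell type, was at 1115 to 1456 FPKM, whereas Cd79a was at 62.4 to 152.1 FPKM, so the libraries held far more of its marker RNA than of Cd79a. The 6 classical dendritic markers summed to 380 and 413 against 262 and 237 FPKM, with 2 of the 5 tested higher. Higher calls were 3 of 11 among neutrophil and monocyte markers, 1 of 10 among T and NK cell markers and 0 of 3 among erythroid markers, with 0 lower. Over all genes tested 6.22% were called higher. The T and NK call was Cd8a, at 129.4 and 134.7 against 15.7 and 25.7 FPKM. In that list 6 log2 fold changes were positive and 4 negative. Cd3e and Cd3g were at -0.19 and -0.55, with overlap of the genotypes. In a bulk sample fewer cells of a type and less RNA per cell cannot be told apart, and the part of these other cells in the members' values was not tested.

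**Figure D1:**
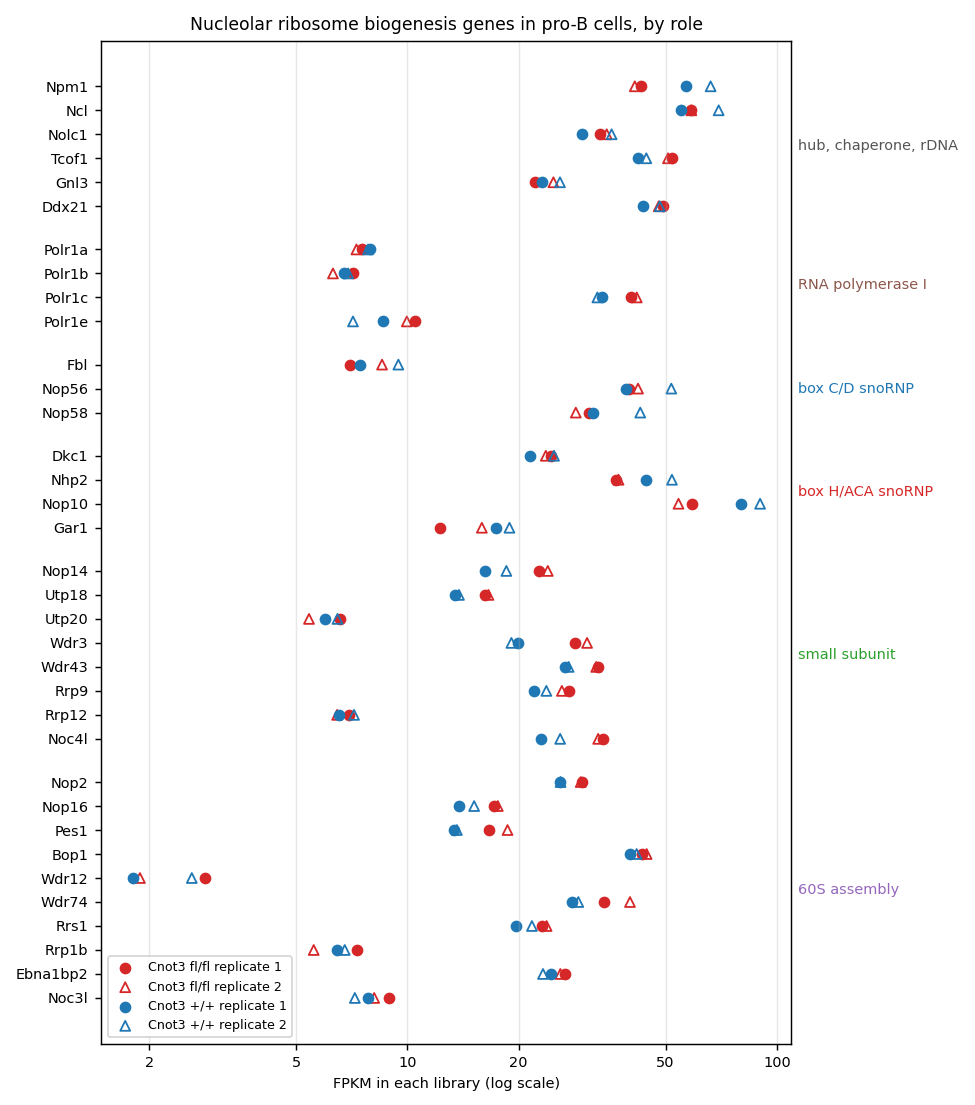
FPKM of each of the 35 members in each library on a log axis, grouped by role, with filled circles for replicate 1 and open triangles for replicate 2 of each genotype. In Wdr3 both Cnot3 fl/fl libraries (red) lie to the right of both Cnot3 +/+ libraries (blue), in Npm1 and Nop10 both lie to the left, and in 12 members the genotypes overlap.

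Of 6 genes for nucleolar hub proteins and factors bound to ribosomal DNA, 1 fell, 0 rose and 5 did not pass. Over all genes tested 3.28% were called lower and 6.22% higher. Npm1 encodes nucleophosmin, an abundant chaperone that gives the outer nucleolus its structure and carries ribosomal proteins. It was at 42.8 and 41.3 FPKM in the fl/fl mice, compared with 56.8 and 66.2 FPKM in the wild type. Both Cnot3 fl/fl libraries were lower than both Cnot3 +/+ libraries, with means of 42.0 ± 1.06 and 61.5 ± 6.61 FPKM (SD, n = 2 each). The ratio of means was 0.683 and the log2 fold change, on the log2(FPKM + 1) scale, -0.54 and its standard error 0.10, with an adjusted p of 0.045 by limma. In the authors' deposited table its q-value was 0.092. In the files' mm9 coordinates Npm1 lies on chromosome 11 from 33052497 to 33063206. The mouse genome holds processed copies of Npm1 that can share its reads, so its level is uncertain in that respect.

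The remaining hub genes stayed closer together. Ncl encodes nucleolin, which binds the precursor RNA, and was at 58.7 and 58.7 FPKM in the fl/fl mice, compared with 55.0 and 69.6 FPKM in the wild type. The Cnot3 fl/fl values fell between those of the Cnot3 +/+ libraries, and the log2 fold change was -0.07 (limma, adjusted p = 0.72). The ratio of Npm1 to Ncl within a library was 0.728 and 0.703 in Cnot3 fl/fl against 1.03 and 0.951 in Cnot3 +/+. Tcof1 encodes treacle, which holds RNA polymerase I and its factors at the ribosomal DNA. It was at 52.1 and 50.7 against 42.1 and 44.3 FPKM, higher in both Cnot3 fl/fl libraries without passing the test (log2 fold change 0.25, adjusted p = 0.098). The snoRNP chaperone gene Nolc1, the nucleostemin gene Gnl3 and the RNA helicase gene Ddx21 had log2 fold changes between -0.06 and 0.08. Over the 4 libraries they ranged from 29.7 to 35.7, 22.1 to 25.9 and 43.5 to 49.2 FPKM, and the genotypes overlapped.

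None of the 4 RNA polymerase I genes passed the test, and the subunits did not go one way. Polr1a and Polr1b encode the large subunits that form the active centre. Polr1a was at 7.53 and 7.28 FPKM in the fl/fl mice, compared with 7.91 and 7.82 FPKM in the wild type, and Polr1b at 7.14 and 6.29 against 6.75 and 6.91 FPKM. Their log2 fold changes were -0.08 and -0.02. Polr1c encodes a subunit that RNA polymerase III shares, and was several times as abundant, at 40.4 and 41.8 against 33.7 and 32.7 FPKM. It was higher in both Cnot3 fl/fl libraries (log2 fold change 0.30, standard error 0.07, limma adjusted p = 0.068). Polr1e, a subunit that works in initiation, was at 10.5 and 9.97 against 8.57 and 7.12 FPKM, also higher in both (log2 fold change 0.35, adjusted p = 0.12, and 0.23 on the log2 scale without Cnot3 +/+ replicate 2). Within a library, Polr1c stood to Polr1a at 5.36 and 5.74 in Cnot3 fl/fl and at 4.26 and 4.18 in Cnot3 +/+. Polr1e over Polr1a was at 1.39 and 1.37 against 1.08 and 0.911, whereas Polr1b over Polr1a overlapped, at 0.948 and 0.864 against 0.854 and 0.884. These ratios were chosen after the values were seen and were not tested.

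The 4 genes of the box H/ACA snoRNP core, which also forms part of telomerase, were split. Dkc1 encodes dyskerin, the pseudouridine synthase itself, and was at 24.5 and 23.7 FPKM in the fl/fl mice, compared with 21.4 and 24.9 FPKM in the wild type. These values overlapped, and the log2 fold change was 0.06 (limma, adjusted p = 0.73). Its 3 small partners were lower in both Cnot3 fl/fl libraries, as were 31.7% of all genes tested. Of the 3, 1 passed the test, where 3.28% of all genes tested were called lower.

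Nop10 encodes a very small protein that joins dyskerin at the catalytic face, and its transcript was the most abundant among the members. It was at 58.8 and 54.2 FPKM in the fl/fl mice, compared with 79.9 and 90.1 FPKM in the wild type. The means were 56.5 ± 3.26 and 85.0 ± 7.17 FPKM (SD, n = 2 each), a ratio of 0.664. The log2 fold change was -0.58 and its standard error 0.10, with an adjusted p of 0.042 by limma. Its q-value in the authors' deposited table was 0.093. In mm9 Nop10 lies on chromosome 2 from 112102125 to 112103055. Nhp2 encodes the RNA-binding partner of Nop10. It was at 36.8 and 37.3 against 44.3 and 52.0 FPKM, lower in both Cnot3 fl/fl libraries without passing the test (log2 fold change -0.37, adjusted p = 0.085). Gar1 encodes the partner that controls substrate turnover, and was at 12.2 and 15.9 against 17.3 and 18.9 FPKM (log2 fold change -0.35, adjusted p = 0.17). Leaving out Cnot3 fl/fl replicate 1 gave -0.18 for Gar1, and leaving out replicate 2 of that genotype gave -0.53. The 3 partner genes have short coding sequences, of 192, 459 and 693 nt, and all tested genes of 111 to 744 nt had a median log2 fold change of -0.12.

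Set against Dkc1 in the same library, each partner was lower in both Cnot3 fl/fl libraries. Nop10 stood at 2.40 and 2.29 times Dkc1 in Cnot3 fl/fl and at 3.73 and 3.61 times in Cnot3 +/+. Nhp2 stood at 1.50 and 1.57 against 2.06 and 2.08, and Gar1 at 0.500 and 0.671 against 0.808 and 0.757. These ratios were chosen after the values were seen, and an exact permutation test of 2 against 2 libraries cannot go below p = 0.33. They compare genes within a library, so a scaling factor of the whole library does not enter them. Dkc1 is on the X chromosome and was lowest in Cnot3 +/+ replicate 1, the library that differed in sex-linked transcripts.

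**Figure D2:**
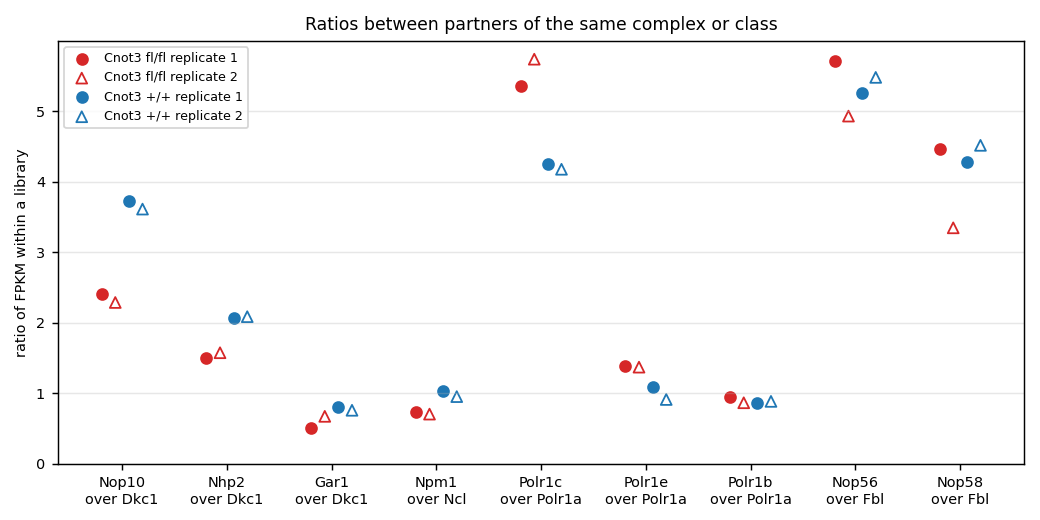
Ratio of the FPKM of 2 genes within each library, for partners of the H/ACA core, RNA polymerase I and the box C/D core and for Npm1 over Ncl, with red for Cnot3 fl/fl and blue for Cnot3 +/+. Nop10 over Dkc1 is at 2.40 and 2.29 in Cnot3 fl/fl and at 3.73 and 3.61 in Cnot3 +/+, whereas Nop56 over Fbl and Polr1b over Polr1a overlap.

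The 3 H/ACA partner genes and Wdr3 are shown by the 250 bases before their start sites. Nop10 lay lowest and Wdr3 highest among the members, and Nhp2 and Gar1 are the other partners of Dkc1. No such window was available for Npm1, which lay between Nop10 and Nhp2 with a log2 fold change of -0.54. The sequences are RefSeq's on build GRCm38.p6, which is not the build of the files, and 29 of the 35 members were matched in that table. They are written 5′ to 3′ on the gene's own strand, with capitals for the ETS core CCGGAAG or its reverse complement CTTCCGG, which ETS-family factors bind. Nop10 is at chr2:112261676-112261925 on the plus strand, Nhp2 at chr11:51619523-51619772 on the plus strand, Gar1 at chr3:129831397-129831646 on the minus strand and Wdr3 at chr3:100162408-100162657 on the minus strand.
Nop10: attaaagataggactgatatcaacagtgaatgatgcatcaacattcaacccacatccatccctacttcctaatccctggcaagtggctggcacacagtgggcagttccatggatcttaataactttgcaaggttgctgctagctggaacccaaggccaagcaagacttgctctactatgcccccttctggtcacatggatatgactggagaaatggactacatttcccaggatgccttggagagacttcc
Nhp2: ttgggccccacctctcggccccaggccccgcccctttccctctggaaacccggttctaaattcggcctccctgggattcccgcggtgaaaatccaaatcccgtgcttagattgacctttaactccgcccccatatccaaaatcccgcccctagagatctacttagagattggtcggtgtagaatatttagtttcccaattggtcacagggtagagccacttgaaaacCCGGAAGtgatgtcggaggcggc
Gar1: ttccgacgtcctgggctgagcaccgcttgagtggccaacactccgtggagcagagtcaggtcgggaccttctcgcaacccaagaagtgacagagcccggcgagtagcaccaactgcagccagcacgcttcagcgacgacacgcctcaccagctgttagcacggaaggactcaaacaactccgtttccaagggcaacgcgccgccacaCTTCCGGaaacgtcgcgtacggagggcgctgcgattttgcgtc
Wdr3: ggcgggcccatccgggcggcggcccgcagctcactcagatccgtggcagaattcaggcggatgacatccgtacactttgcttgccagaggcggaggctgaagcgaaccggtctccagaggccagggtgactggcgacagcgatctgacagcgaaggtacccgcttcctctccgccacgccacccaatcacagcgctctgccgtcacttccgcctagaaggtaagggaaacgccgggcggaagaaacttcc
Nhp2 and Gar1 each held 1 ETS core, starting 23 and 43 bases before the start site, and these letters were not in the windows of Nop10 and Wdr3. On either strand, the core was in 7 of 29 members, or 24.1%, against 7.83% of the 27025 genes of the table and 17.2% of its 8265 genes that were tested here. The members were Nolc1, Polr1c, Nhp2, Gar1, Utp18, Nop2 and Wdr74, whose log2 fold changes ran in both directions. The E-box CACGTG, which Myc with Max binds and which reads the same on both strands, was searched too, and neither motif contains the other. It was in the windows of Utp18 and Nop2, 6.90% of 29 members, against 6.86% of all genes in the table and 10.2% of those tested.

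In the box C/D core none of 3 genes passed the test, and all 3 had negative log2 fold changes. Fbl encodes fibrillarin, the methyltransferase, and was at 6.97 and 8.54 FPKM in the fl/fl mice, compared with 7.44 and 9.45 FPKM in the wild type. The scaffold gene Nop56 was at 39.8 and 42.1 against 39.1 and 51.8 FPKM, and its paralog Nop58 at 31.1 and 28.6 against 31.8 and 42.7 FPKM. Only in Nop58 were both Cnot3 fl/fl libraries the lowest, by a narrow margin from Cnot3 +/+ replicate 1 (log2 fold change -0.30, limma adjusted p = 0.25). The value for Nop58 was -0.09 with Cnot3 +/+ replicate 2 left out, and -0.50 with replicate 1 of that genotype left out. In each of these genes Cnot3 +/+ replicate 2 was the highest library.

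Among 8 genes of the small-subunit processome and 40S maturation 1 rose, 0 fell and 7 did not pass, and both Cnot3 fl/fl libraries were above both Cnot3 +/+ libraries in 6. Over all genes tested these shares were 6.22% called higher, 3.28% called lower and 32.7% with both Cnot3 fl/fl libraries above. Wdr3 encodes a scaffold protein of the UTP-B subcomplex, which binds the start of the precursor. It was at 28.5 and 30.6 FPKM in the fl/fl mice, compared with 19.9 and 19.1 FPKM in the wild type. The means were 29.6 ± 1.53 and 19.5 ± 0.537 FPKM (SD, n = 2 each), a ratio of 1.52. The log2 fold change was 0.58 and its standard error 0.08, with an adjusted p of 0.038 by limma. The files give it a locus on mm9 chromosome 3 from 99689339 to 99966326, and list the same span for its neighbour Spag17, so it is not the extent of Wdr3 alone.

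Noc4l and Nop14 encode partners that bind each other in the processome. Noc4l was at 33.9 and 32.8 against 22.9 and 25.9 FPKM, and Nop14 at 22.7 and 24.0 against 16.2 and 18.5 FPKM. Both were higher in both Cnot3 fl/fl libraries and did not pass (log2 fold changes 0.44 and 0.41, limma adjusted p = 0.053 and 0.067). Utp18, of the same subcomplex as Wdr3, was at 16.2 and 16.6 against 13.5 and 13.8 FPKM, and Wdr43, of the UTP-A subcomplex, at 32.7 and 32.4 against 26.8 and 27.3 FPKM. Rrp9, a protein of the U3 snoRNP, was at 27.4 and 26.2 against 22.0 and 23.8 FPKM. The log2 fold changes of these 3 were 0.25, 0.26 and 0.22 (adjusted p = 0.11, 0.082 and 0.14). Utp20 and Rrp12, which encode large helical-repeat proteins, were low, at 5.42 to 6.58 and 6.45 to 7.17 FPKM, and overlapped, with log2 fold changes of -0.05 and -0.03. The median over the 8 genes was 0.26.

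In 60S assembly 0 of 10 genes passed the test, and both Cnot3 fl/fl libraries were above both Cnot3 +/+ libraries in 8. Over all genes tested 9.49% were called in either direction and 32.7% had both Cnot3 fl/fl libraries above. The median log2 fold change was 0.17, within a range of -0.04 to 0.36. Pes1, Bop1 and Wdr12 encode the PeBoW complex, which is needed to process the 60S precursor. Pes1 was at 16.6 and 18.7 against 13.4 and 13.6 FPKM (log2 fold change 0.36, limma adjusted p = 0.075). Bop1 was at 43.1 and 44.4 against 39.9 and 41.7 FPKM, and Wdr12, the lowest member, at 2.83 and 1.89 against 1.804 and 2.61 FPKM. Their log2 fold changes were 0.10 and 0.06, so the mRNAs of the 3 partners were neither equally abundant nor equally different. Wdr74, which acts at the release of a helicase from the particle, was at 34.0 and 40.03 against 27.9 and 29.0 FPKM (log2 fold change 0.36, adjusted p = 0.089).

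The other 60S genes differed less. The rRNA methyltransferase gene Nop2 was at 29.8 and 29.4 against 25.9 and 26.0 FPKM, a difference of 0.18 on the log2 scale with little spread within a genotype (adjusted p = 0.15). Nop16, Rrs1, Ebna1bp2 and Noc3l had log2 fold changes of 0.25, 0.17, 0.13 and 0.16 and did not pass. They ranged over the libraries from 13.8 to 17.6, 19.7 to 23.8, 23.3 to 26.8 and 7.21 to 8.92 FPKM, each without overlap of the genotypes. Rrs1 works in placing the 5S RNA particle. Rrp1b was at 7.29 and 5.58 against 6.44 and 6.77 FPKM, and overlapped.

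**Figure D3:**
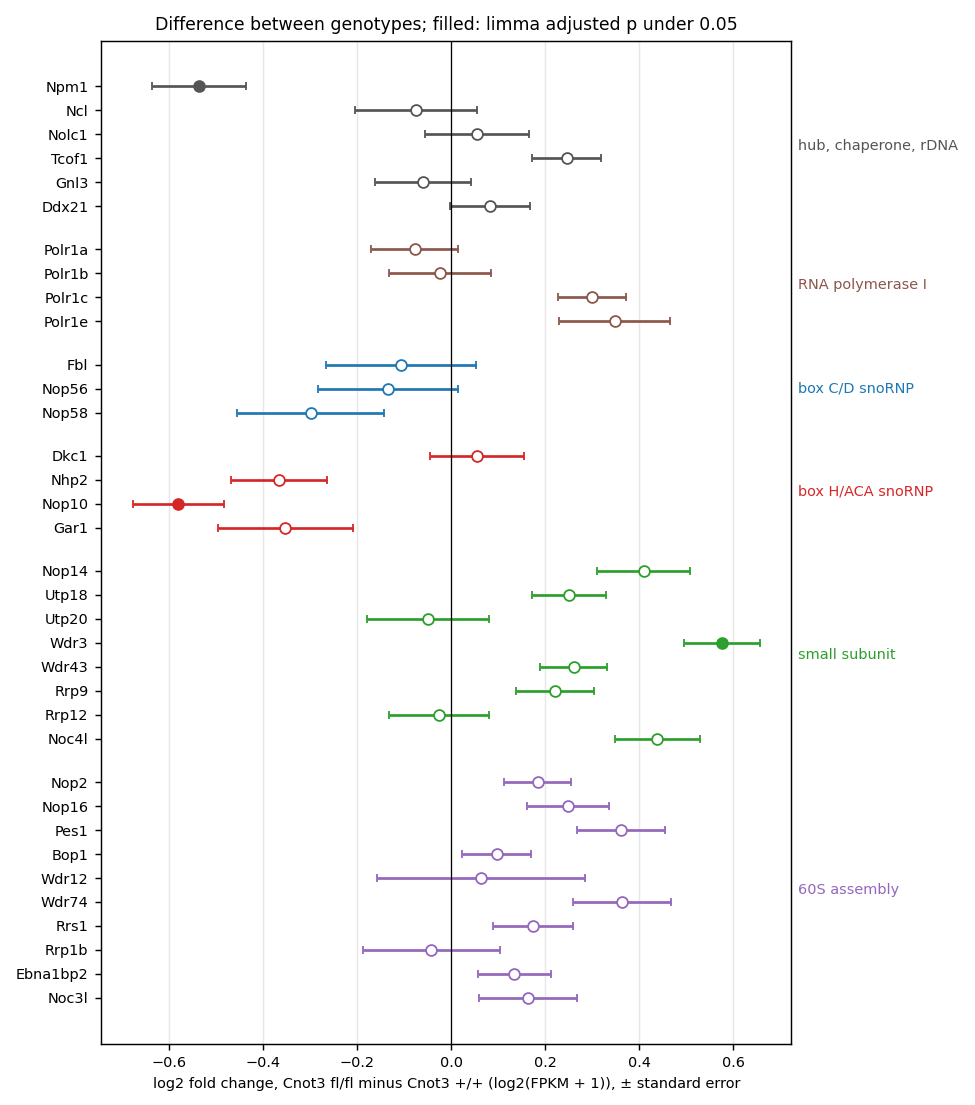
Log2 fold change of each member between Cnot3 fl/fl and Cnot3 +/+ libraries on the log2(FPKM + 1) scale, with its limma standard error, coloured by role and filled where the adjusted p was under 0.05. Wdr3 at 0.58, Npm1 at -0.54 and Nop10 at -0.58 are filled, and the small-subunit and 60S genes lie mostly to the right of 0.

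The 3 calls did not hold with fewer libraries: with any 1 of the 4 libraries left out no member was called, and the lowest adjusted p of a member was then 0.09. At an unadjusted p under 0.05, where 15 members and 3722 of 11017 genes stood, there were 8 members and 2137 genes with Cnot3 fl/fl replicate 1 left out, and 5 and 2059 with replicate 2 of that genotype left out. There were 12 members and 3257 genes without Cnot3 +/+ replicate 1, and 12 and 3221 without Cnot3 +/+ replicate 2. The calls were also lost with no filter on low values and without the variance trend. The directions of Wdr3, Nop10 and Npm1 stayed the same in all 15 alternative settings, with log2 fold changes of 0.50 to 0.63, -0.67 to -0.49 and -0.64 to -0.43, and they were called in 9, 8 and 8 of these.

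The other genes of the pathway were read from lists of the same steps, 134 tested genes in all, of which 8 rose and 2 fell, or 7.46% against 9.49% of all genes tested. Of 47 other small-subunit factors 4 rose and 1 fell, or 10.6%, where 6.22% of all genes tested were called higher and 3.28% lower. The helicase genes Ddx10, Ddx47 and Ddx52 and Mphosph10, a U3 snoRNP protein, rose with log2 fold changes of 0.52, 0.45, 0.38 and 0.43 (limma, adjusted p = 0.043, 0.047, 0.048 and 0.045). Emg1, an rRNA methyltransferase gene, fell. It was at 82.9 and 89.6 FPKM in the fl/fl mice, compared with 120.5 and 128.9 FPKM in the wild type (log2 fold change -0.53, adjusted p = 0.042). The genotypes did not overlap in any of these 5 genes, which were picked by their p-values in the same libraries. Over all genes tested 64.4% did not overlap. The median of the 47 was 0.19.

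Of 52 other 60S factors 4 rose and 0 fell, or 7.69% against 9.49% of all genes tested, with a median log2 fold change of 0.09. Rpf1 was at 40.02 and 39.3 against 25.3 and 27.0 FPKM (log2 fold change 0.58, limma adjusted p = 0.036). Rrp8, an rRNA methyltransferase gene, the helicase gene Ddx27 and Rrp1 rose by 0.48, 0.40 and 0.43 on the log2 scale (limma, adjusted p = 0.042, 0.047 and 0.048). Among 16 other genes of RNA polymerase I and its initiation factors 1 fell and 0 rose, with a median of -0.14. That is 6.25% against 9.49% of all genes tested. Polr2l, a small subunit shared by all 3 nuclear polymerases, fell from 3.95 and 3.86 FPKM in Cnot3 +/+ to 2.04 and 2.08 FPKM in Cnot3 fl/fl libraries (log2 fold change -0.68, adjusted p = 0.043). None of 19 genes of snoRNP assembly and of the RNA-cleaving particles RNase P and MRP passed. Shq1 and Nufip1, assembly factors of H/ACA and C/D particles, were each at 0.49 in log2 fold change (adjusted p = 0.056 and 0.057). All 10 of these calls were lost with any 1 library left out.

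**Figure D4:**
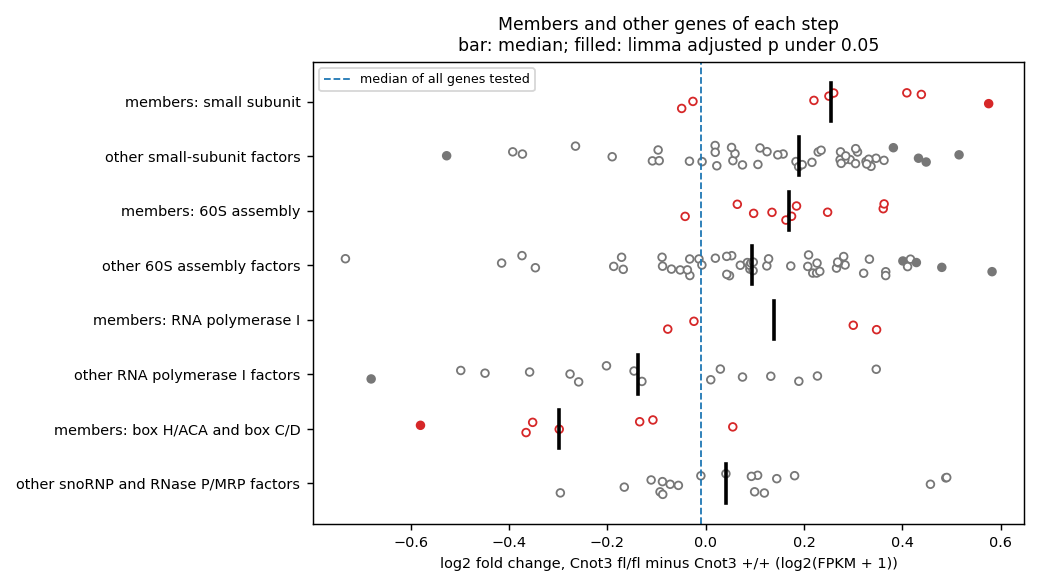
Log2 fold change of each tested gene for 4 steps of ribosome biogenesis, with members in red and other genes of the same step in grey, a black bar for the median and a dashed line for the median of all genes tested. The medians of the small-subunit genes are 0.26 for members and 0.19 for others, and filled points passed the test.

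Regulators of the pathway did not pass. Myc was at 17.5 and 20.7 FPKM in the fl/fl mice, compared with 16.5 and 29.4 FPKM in the wild type, with overlap (log2 fold change -0.20, limma adjusted p = 0.65). Mycn was under 1 FPKM in every library, from 0.0684 to 0.692 FPKM, and was not tested. Among 11 tested genes of the Myc network 0 rose and 0 fell, and the log2 fold change was -0.31 for Mga and 0.18 for Max (adjusted p = 0.13 and 0.19). Unassembled ribosomal proteins can hold back Mdm2, which marks p53 for destruction. In the list for this surveillance 0 of 10 tested genes passed, and the log2 fold change was -0.31 for Mdm2 and -0.42 for Rpl5 (adjusted p = 0.068 and 0.097). Mdm2 and Rpl5 were each lower in both Cnot3 fl/fl libraries, as were 31.7% of all genes tested. At an unadjusted p under 0.05 there was 1 gene in the Myc list, Mga, and 2 in the surveillance list, Mdm2 and Rpl5. That is 1 of 11 and 2 of 10 tested genes, where 33.8% of all genes tested were under that level.

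Replicates of a genotype differed in these genes mainly in the Cnot3 +/+ mice. Replicate 2 was above replicate 1 in 29 of 35 members there, with a median difference of 0.12 on the log2 scale. Over all genes tested it was above in 5089 of 11017, with a median difference of -0.02. In Cnot3 fl/fl libraries replicate 2 was above replicate 1 in 15 members and below in 20, with a median difference of -0.01. Over all genes tested it was above in 6084 and below in 4907, with a median difference of 0.02. The largest gap between the Cnot3 +/+ replicates was 0.41, in Nop58. Markers of dividing cells moved with it: all 12 were higher in Cnot3 +/+ replicate 2, with a median difference of 1.11, and their sum was 449 FPKM against 229 FPKM in replicate 1. In Cnot3 fl/fl libraries that sum was 288 and 250 FPKM. Early B-lineage markers were also higher in Cnot3 +/+ replicate 2, in 12 of 13, as were 10 of 11 neutrophil and monocyte and 3 of 3 erythroid markers. Lower in that library were 9 of 12 plasmacytoid dendritic, 4 of 5 classical dendritic and 6 of 10 T and NK cell markers. Between the genotypes 0 of the 12 markers of dividing cells passed the test. The part of dividing cells in the members' values was not tested. Without Cnot3 +/+ replicate 2 the median log2 fold change of the members was 0.16, and without Cnot3 +/+ replicate 1 it was 0.01, so 1 library moved this value more than 1.5 times in either direction.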

How the data were processed

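RNA-seq libraries were made with a stranded mRNA kit and 15 cycles of PCR, per the labels' protocols. TopHat2 2.0.13, Bowtie2 2.2.3.0, Cufflinks 2.2.1, Cuffnorm 2.2.1 and the build mm9 are named in the submitters' processing notes. The authors deposited FPKM per gene and library, and a table of their own comparison with FPKM per genotype, p-values and q-values. The sources used here do not say whether strand was used in counting, or whether coordinate starts count from 0 or 1. FPKM keeps no depth, so no count test was run, and reads shared with near-identical copies cannot be separated.

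From the FPKM, log2(FPKM + 1) was fitted by genotype over the 4 libraries with limma 3.58.1 (R 4.3.3, empirical Bayes with a mean-variance trend) for 11017 genes averaging 1 FPKM or more. The fit was also run on simulated data, where small added changes were missed and large ones mostly recovered. P-values are two-sided and adjusted over all genes by Benjamini and Hochberg. With 2 libraries a group, they set each difference against the spread between these libraries, moderated by that of other genes. A gene's own libraries gave 2 degrees of freedom and the other genes 2.69. Members and lists were chosen with earlier results of these data known. Named genes are all members, and from each other list the genes past the threshold (at most 6) or else the 2 with the smallest p, with Myc and Mycn added. Alternatives were other pseudocounts, filters, scalings and variance settings, a replicate block and leaving out each library. A further alternative, chosen after seeing the data, removed the trend with transcript length.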

Additional observations from a re-analysis of the deposited data

How the results depend on the processing

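With 2 libraries a genotype the number of calls depended on the settings. Genes called higher, 685 by the reported fit, were 4 with no filter on low values, 242 without the variance trend and 456 with the replicate block, and reached 914 with robust eBayes and 927 with libraries scaled to an equal sum of FPKM. They were 2 to 18 with 1 library left out. Genes called lower, 361, were 1, 69, 270, 515 and 380 under the same settings, 461 with quantile normalization, 488 with the length trend removed and 0 to 13 with 1 library left out. Members called higher, 1 as reported, were 0 with no filter and without the trend, 2 with a mean of at least 5 FPKM and with robust eBayes, and 4 with an equal sum of FPKM. All genes called higher in these 3 settings were 645 of 8539, 914 of 11017 and 927 of 11017. Those added were Noc4l in each of the 3 settings, and Nop14 and Wdr74 in the last. Members called lower, 2 as reported, were 0 with no filter, without the trend and with the replicate block, where Npm1 had an adjusted p of 0.055 and Nop10 of 0.053. With 1 library left out, members called higher were 0 to 0 and lower 0 to 0. The lone sample of a genotype is then assumed to vary like the other genotype. Only 2 same-numbered pairs exist, their deviations correlated at 0.14 over genes, and the labels do not say that the numbers pair the mice. The members' median log2 fold change ran from 0.0104 to 0.16 with 1 library left out.

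Direction changed only in members that were not called. Scaling to an equal sum, which moved the median of all genes to 0.03, gave 0.011 for Polr1b and 0.0093 for Rrp12, and removing the length trend gave 0.017 for Utp20. With 1 library left out, the ranges crossed 0 for Ncl (-0.24 to 0.092), Nolc1 (-0.074 to 0.18), Gnl3 (-0.14 to 0.0204), Polr1b (-0.10 to 0.056), Fbl (-0.26 to 0.047) and Nop56 (-0.33 to 0.063). They also did for Dkc1 (-0.049 to 0.16), Utp20 (-0.17 to 0.0715), Rrp12 (-0.085 to 0.033), Wdr12 (-0.14 to 0.27) and Rrp1b (-0.21 to 0.12). The cause was not tested. The other pathway genes' 10 calls were 0 with no filter, 1 without the trend and 2 with the replicate block, with the same signs. Depth in reads is unknown, which leaves the counting error of low genes such as Wdr12 unmeasured.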

Other observations

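Several members also carry small nucleolar RNAs in their introns, the guide RNAs that the box C/D and H/ACA proteins use. By the GENCODE M21 annotation 6 of the 35 members hold snoRNA genes, 19 in all: Nop56 holds 5, Nop58 4, Ncl, Gnl3 and Wdr43 3 each, and Dkc1 1. That is 17.1% of members against 1.88% of the tested genes with an annotation. None of the 6 host members was called, and their median log2 fold change was -0.07, within a range of -0.30 to 0.26, beside 0.13 for the other members. Over all genes tested, hosts had a median of -0.19 and other genes of -0.01. The snoRNAs themselves were not analysed here.

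The members differ widely in size, and the lower ones include the shortest. Nop10, Nhp2, Nop16 and Gar1 have coding lengths of 192, 459, 543 and 693 nt, the shortest among the members, and their log2 fold changes were -0.58, -0.37, 0.25 and -0.35. All tested genes with coding lengths of 111 to 744 nt had a median log2 fold change of -0.12, with 7.49% called lower and 3.96% higher, the shortest of 5 equal classes, whereas the other 4 classes had medians of 0.01 to 0.03. With a trend on transcript length removed, Nop10, Npm1 and Wdr3 were still called. A trend on coding length was not removed in any setting. Across the 35 members Spearman's rho of fold change on coding length was 0.18, and across 10551 genes 0.12. Pearson's r on log2 coding length was 0.37 across the members and 0.10 across the same 10551 genes, as a description of genes that share the same 4 libraries.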
